A study of Mus musculus with 23 samples.

Results

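SOX6-targeted oligodendrocyte progenitor cells (OPCs) of the mouse were kept for 60 hours in growth medium or in a permissive medium. The permissive medium lets them differentiate into immature oligodendrocytes (OLs). Changes below compare OLs with OPCs, both at 60 hours. The members were the 11 of 23 libraries of the series that carried a guide against Sox6: 5 from cells in OPC growth medium (2 with guide 1, 3 with guide 2) and 6 from cells in the permissive medium (3 with each guide). The OPCs had been grown from epiblast stem cells of the lines EpiSC5 (strain 129SvEv) and 129O1 (strain 129S1/SvImJ) and sorted for CD140a and NG2. All of them, and the control cells too, had received a lentiviral CRISPR vector that carries Cas9 and a guide, 500 ng/mL puromycin for 96 hours, and a freezing step; control cells (3 OPC and 3 OL libraries) carried a non-targeting guide, which had 0 exact matches in the annotated transcripts. Targeted and control cells came from 1 original batch of OPCs, no clone is named for them, and the columns of the deposited tables do not say which stem cell line a library came from. The labels tie replicate numbers to the lines, the columns carry letters, and copies of the tables that hold these libraries are named for EpiSC5, so a group may hold 1 line or both. Growth medium held 20 ng/mL each of bFGF and PDGFA. The permissive medium replaced them with noggin and IGF-1 (100 ng/mL each), 10 uM cyclic AMP and 10 ng/mL NT3, and left out thyroid hormone. Each culture, in either medium, was lysed after 60 hours. Separate cultures are not stated for the libraries of any group. The p-values therefore cover the spread among these samples alone, and that spread may be technical.

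Oligodendrocytes wrap the axons of the brain in myelin. Their progenitors divide in response to PDGF and FGF, and when these factors are withdrawn they leave the cell cycle, extend processes and switch on, in steps, genes of newly formed and then of myelinating oligodendrocytes. SOX10, OLIG1, OLIG2 and MYRF drive that program, and SOX5 and SOX6 are SoxD factors that are known to hold progenitors back. SOX6 binds DNA through an HMG box but has no activation domain of its own.

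The guides decide what was cut, so they are shown with the 3 bases that follow each site in the Sox6 transcript, the PAM that Cas9 needs, in capitals.
Guide 1: ttgacggaatgaactgtacgGGG
Guide 2: agaacacgctttgagaacctGGG
Matched to the GENCODE annotation of GRCm38 (mm10), guide 1 lay at chr7:115580612-115580631 in exon 9 of the 17 exons of a Sox6 transcript, on the strand opposite to the gene. Guide 2 lay at chr7:115512747-115512766 in exon 14, on the strand of the gene. Both sites were coding, and the cuts fell at residues 305 and 547 of 827. Sox6 spans chr7:115470872-116038796 on the minus strand.

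Sox6 itself stood at 88.9 and 75.0 CPM (read counts as a share of the scaled library total) in guide 1 OPCs and at 74.4, 67.4 and 86.4 CPM in guide 2 OPCs, against 165, 201 and 234 CPM in control OPCs. In the permissive medium it stood at 259, 157 and 242 CPM in guide 1 OLs and 255, 253 and 255 CPM in guide 2 OLs. Control OLs were at 417, 437 and 387 CPM. Targeted libraries lay below every control library of the same stage, but within the targeted cells each OL library lay above each OPC library. The rise was 1.55 ± 0.13 on the log2 scale (mean of the guides ± standard error, SE; adjusted p = 6.15e-06, edgeR's quasi-likelihood test with Benjamini-Hochberg adjustment, as for all adjusted p-values below), and that in control cells was 1.05 (adjusted p = 1.04e-04). The difference of these rises, 0.53 ± 0.20, did not pass (adjusted p = 0.3; 0.019 without library B of the guide 1 OLs). Against controls of the same stage Sox6 was lower by 1.34 in OPCs and by 0.81 in OLs (adjusted p = 9.92e-05 and 0.00111). A guide cuts DNA, so reads of the transcript do not measure the protein.

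Total counts ran from 13124580 to 18551822 in the 11 targeted libraries. Library B of the guide 1 OLs stood apart from the others. Over 6968 genes, the log2 ratio of this library to its group mates fell with transcript length (Spearman rho -0.73, a description across genes), and 497 genes were more than 2-fold from the mates, against 14 to 56 in libraries of the other 3 targeted groups, whose rho ran from -0.27 to 0.36. Its mates A and C leaned the other way, at 0.65 and 0.70, against references that hold library B. Their values are therefore not independent of that of library B. Control OPC libraries A and C also leaned with length, at -0.55 and 0.56, and each is part of the other's reference. The part that length or RNA quality plays in any result was not tested, and counts are given with and without library B. Stage and table cannot be told apart, since OPCs and OLs were deposited in separate tables. The tables give an abundant gene such as Actb only 17.7 to 37.5 CPM in the targeted libraries, so a symbol may hold part of its gene's reads, and levels below compare libraries, not genes.

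The change from OPCs to OLs reached a large share of the genes. Of 14031 tested, 6917 (49.3%) passed the threshold of 0.05 on the adjusted p, 3402 (24.2%) higher in OLs and 3515 (25.1%) lower. At least 2-fold changes were called in 1496 genes that rose and 1148 that fell, and at least 4-fold changes in 600 and 443. Without library B of the guide 1 OLs, 8378 of 13976 genes (59.9%) were called, 4048 higher (29.0%) and 4330 lower (31.0%), and 6816 of the 6917 calls remained with their direction.

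The guides gave calls in the same directions. Guide 1 alone gave 4505 calls (32.1% of genes; 16.4% higher and 15.7% lower) and guide 2 alone 5771 (41.1%; 19.6% higher and 21.6% lower). Of the genes called higher, 1933 were shared (84.0% of those of guide 1 and 70.4% of those of guide 2), and of those called lower 1936 (87.8% and 64.0%). 0 genes were called in opposite directions. Across genes the changes with the guides had a Pearson r of 0.71 and a Spearman rho of 0.77. The difference between the changes passed for 0 genes in edgeR (0.0%; 691 at an unadjusted p under 0.05, smallest adjusted p 0.442) and for 38 in DESeq2. Without library B it passed for 2, Cdca8 and Hmgb2, named after their values were seen, whose fall was larger with guide 2 by 0.90 and 0.57 on the log2 scale (adjusted p = 0.0312 and 0.0429); both take part in dividing cells, Cdca8 as a subunit of the chromosomal passenger complex and Hmgb2 as a chromatin protein. The guide 1 count rested on its 2 OPC libraries: 2822 without library A and 2751 without library B, where the lone OPC library is assumed to vary like the other groups. Without library B of the guide 1 OLs it was 6151, and that of guide 2 was 7629.

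**Figure D1:**
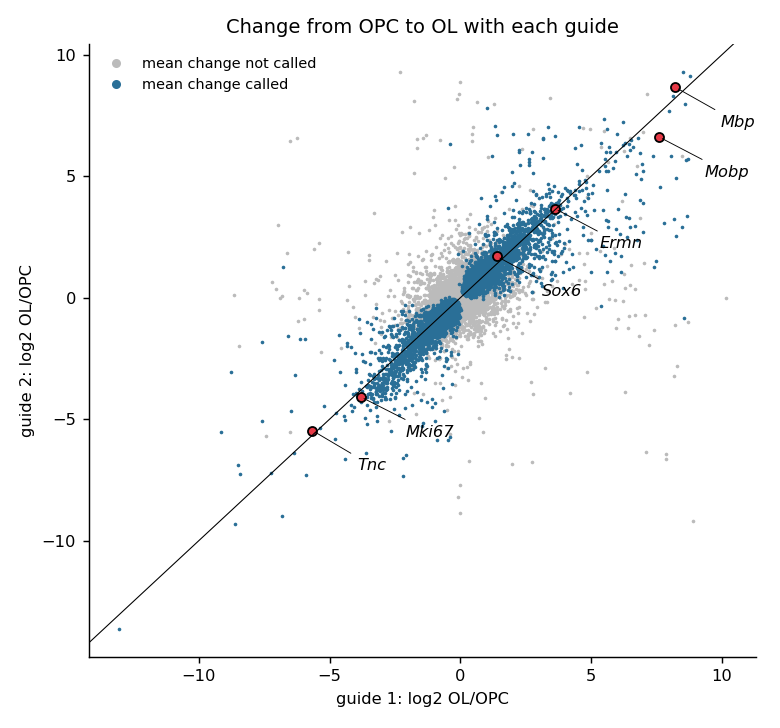
Change from OPC to OL with guide 1 (horizontal axis) and guide 2 (vertical axis), both as log2 of OL over OPC; each point is 1 of 14031 genes and the line marks equal change. Mbp (8.22 and 8.67), Mobp, Ermn and Sox6 lie high with both guides, and Tnc and Mki67 low.

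The oligodendrocyte markers rose in every targeted OL library. Mbp, which encodes myelin basic protein, the protein that compacts the myelin membrane, stood at 2.12 and 3.61 CPM in guide 1 OPCs and 2.46, 2.36 and 2.35 CPM in guide 2 OPCs. In OLs it reached 876, 913 and 822 CPM with guide 1 and 976, 1021 and 995 CPM with guide 2. The lowest OL library thus lay far above the highest OPC library, and the rise was 8.44 ± 0.14 on the log2 scale (adjusted p = 3.54e-10). Mobp, a small basic protein of compact myelin, went from 0.401 and 0.240 CPM (guide 1) and 0.300, 0.571 and 1.26 CPM (guide 2) to 68.8, 64.1 and 63.2 CPM and 77.2, 65.0 and 76.8 CPM, a rise of 7.11 ± 0.26 (adjusted p = 1.12e-08). Ermn encodes ermin, which binds actin in the processes of oligodendrocytes. It went from 1.43 and 0.541 CPM and 0.780, 1.00 and 0.602 CPM to 11.9, 11.7 and 13.8 CPM and 9.59, 9.91 and 11.7 CPM, a rise of 3.64 ± 0.26 (adjusted p = 1.41e-06). Its exons share bases with those of Galnt5, and the library kit does not mark strand. Stages did not overlap for any of the 3 genes with either guide. Without library B the changes were 8.43, 7.12 and 3.67. In bulk samples such as these, fewer cells of a type and less RNA per cell cannot be told apart.

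**Figure D2:**
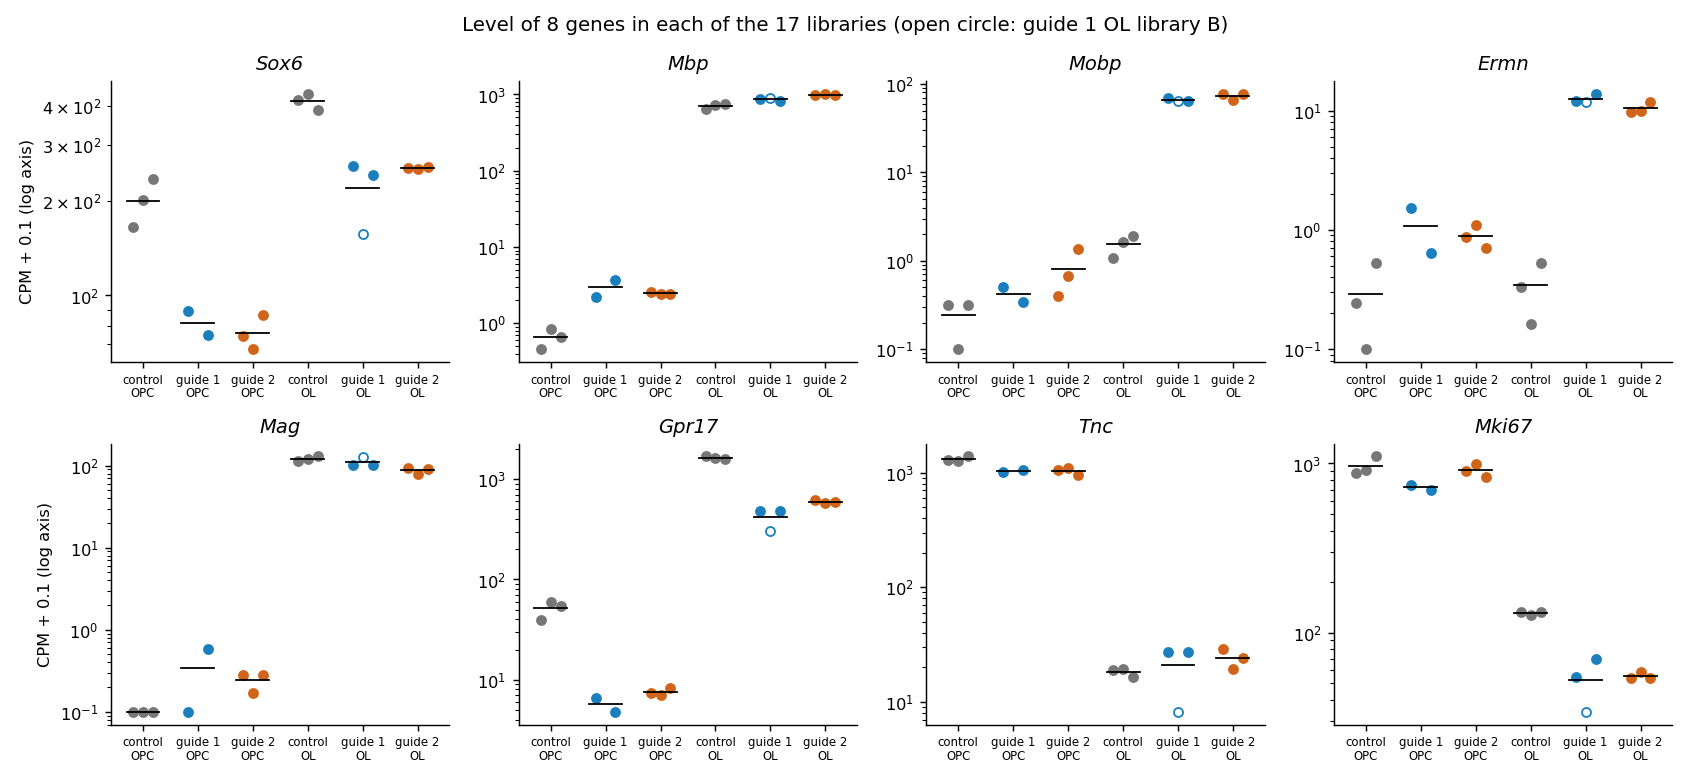
CPM plus 0.1 on a log axis for 8 genes; each circle is 1 library, the bar is the group mean, and the open circle is library B of the guide 1 OLs. Mbp, Mobp, Ermn, Mag and Gpr17 separate the stages of the targeted cells upward, Tnc and Mki67 downward, and Sox6 rises within the targeted cells while staying below the controls of the same stage.

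The 15 largest rises among genes with at least 10 CPM and no overlap between the stages ran from 8.96 to 4.95. Beside Mbp and Mobp they held Mag, an adhesion molecule of the myelin layer next to the axon (0 to 0.481 CPM in OPCs, 78.3 to 127 CPM in OLs). Fa2h, which makes the hydroxylated fatty acids of myelin lipids, rose by 6.29. Gpr17, a receptor of cells about to mature, stood at 4.69 to 8.19 CPM in OPCs and 306 to 618 CPM in OLs. Neu4, a sialidase, rose by 6.68, and Tnr, a matrix protein made by oligodendrocytes, by 4.95, with library B at 102 CPM against 392 to 506 CPM in the other OL libraries. Apoe, the lipid carrier, stood at 66.5 to 79.2 CPM in OPCs and 2281 to 3948 CPM in OLs. They also held Gp1bb (6.60), a platelet receptor subunit whose exons overlap those of Sept5, Scg2 (5.77), a secretogranin, Chst1 (5.63), a sulfotransferase, Galnt13 (5.47), which starts O-linked sugar chains, Prickle1 (5.28), of the planar cell polarity pathway, and Slc25a34 (4.99), a mitochondrial carrier. In the control cells 15 of these 15 also rose (background 21.4%), and 15 of 15 stayed called without library B.

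Of the 32 myelin and mature oligodendrocyte genes listed, 27 passed the filter on low counts. Among these 21 rose (77.8%, beside 24.2% of all genes) and 1 fell (3.7%, beside 25.1%). The median log2 change was 2.95, beside 0.014 over all genes tested. Genes that pass the filter only through OLs had to differ, so this count is a description. Summed over the list, levels were 384 to 418 CPM in OPCs and 3085 to 3571 CPM in OLs, with library B inside the OL range. Cnp, an enzyme of non-compact myelin, rose by 2.32, Cldn11, which forms the tight junctions of myelin, by 4.04, and Gal3st1, the sulfotransferase that makes sulfatide, by 4.03. The gap junction gene Gjc3 rose by 2.95, and Gpr37, a receptor of maturing oligodendrocytes, by 1.91. Plekhh1 fell by 1.43. Among members that did not pass the filter, Mog, of the outermost myelin layer, was at 0 in every targeted library except 1 (library A of the guide 1 OLs, 0.431 CPM). Opalin, of mature cells, stood at 3.37 to 6.16 CPM in OLs. Aspa, an enzyme of acetylaspartate metabolism, and Hapln2, a link protein of nodes, did not pass the test (-0.48 and 0.40).

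The 250 bases before the RefSeq start of Mobp are printed because the gene rose 138-fold (fitted) in the targeted cells and because SOX factors and the TCF/LEF factors of the Wnt pathway share a preference for cores such as ACAAAG. The stretch is chr9:120149492-120149741 on the plus strand (GRCm38.p6, RefSeq), with CTTTGT, the reverse complement of ACAAAG, in capitals.
Mobp promoter: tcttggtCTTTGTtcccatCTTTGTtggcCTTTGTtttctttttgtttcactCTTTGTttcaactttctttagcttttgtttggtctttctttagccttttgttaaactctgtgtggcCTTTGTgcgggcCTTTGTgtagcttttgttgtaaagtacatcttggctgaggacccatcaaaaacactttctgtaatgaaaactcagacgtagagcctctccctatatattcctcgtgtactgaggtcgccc
It held 6 copies, each as CTTTGT and none as ACAAAG. Among 32851 promoter stretches of the same length, 16.5% held the motif on either strand at least once and 1, that of Mobp, held it 6 times or more. The motif was picked after this sequence was seen. The same stretch of Ermn held none. These are matches of letters, not measured binding.

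Of 20 tested genes of newly formed oligodendrocytes, 10 rose (50.0%, beside 24.2% of all genes) and 3 fell (15%, beside 25.1%), with a median of 1.52; without library B 12 rose and 5 fell. Bcas1, which marks cells starting to myelinate, stood at 105 to 119 CPM in OPCs and 342 to 455 CPM in OLs. Sirt2, a tubulin deacetylase, rose by 2.21, Nfasc, an adhesion molecule of nodes and paranodes, by 2.84, and Tmem163, a zinc transporter, by 4.08. Lims2 rose by 4.04, but its exons overlap those of Gpr17 on the other strand and the library kit does not mark strand. Tcf7l2, a Wnt effector of this stage, did not pass (0.081, 24.1 to 32.7 CPM in OPCs and 23.6 to 45.3 CPM in OLs). Enpp6 had no count in 5 targeted OPC libraries, so no fold is given; it stood at 0.0673 to 2.06 CPM in OLs.

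Progenitor genes mostly did not fall. Of 21 tested, 16 rose (76.2%, beside 24.2% of all genes) and 2 fell (9.52%, beside 25.1%), with a median of 0.90. Pdgfra, the PDGF receptor by which progenitors are recognised, stood at 18.4 and 6.61 CPM (guide 1) and 12, 10.8 and 15.8 CPM (guide 2) in OPCs and at 128, 78.2 and 159.9 CPM and 116, 149 and 93.2 CPM in OLs. All OL libraries lay above all OPC libraries, and the rise was 3.21 ± 0.31 (adjusted p = 1.16e-05). Ednrb, an endothelin receptor, rose by 3.01, Pcdh15, a protocadherin of progenitors, by 4.46, Cntn1, a contactin, by 1.57, and Lhfpl3 by 1.52. Cspg4, the NG2 proteoglycan, fell by 1.15 (adjusted p = 7.51e-05). Summed CPM of the list were 7173 to 7870.1 in OPCs and 8533 to 11929 in OLs, the lowest OL value being that of library B.

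Among 17 differentiation transcription factors, 10 rose (58.8%, beside 24.2% of all genes) and 3 fell (17.6%, beside 25.1%), with a median of 0.36. Summed CPM of the list went the other way, from 6918 to 7319 in OPCs and from 5531 to 6244 in OLs. Myrf, the factor that directly activates myelin genes, stood at 1.78 and 1.32 and 2.28, 1.57 and 0.843 CPM in OPCs and at 28.1, 6.53 and 29.2 (guide 1) and 29.3, 23.6 and 21.2 CPM (guide 2) in OLs. Library B was the lowest OL library, still above each OPC library, and the rise was 3.84 ± 0.44 (adjusted p = 4.65e-05). Sox10 rose by 3.29 (13.5 to 15.8 CPM in OPCs, 125 to 166 CPM in OLs), St18, a zinc finger factor, by 5.85, Nkx6-2 by 1.87 and Zfp488 by 1.33. Olig2 and Olig1 fell by 0.63 and 0.41, and Yy1 by 0.41.

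Progenitor or inhibitory transcription factors went both ways. Of 21 tested, 9 rose and 9 fell (42.9% each, beside 24.2% and 25.1% of all genes), with a median of -0.14. Myc, which drives growth, fell by 1.83, Hmga2, a chromatin protein of dividing progenitors, by 3.15 and Sox11 by 1.20. Sox5, the SoxD partner of Sox6, fell by 0.43 (adjusted p = 0.006), with 42.0 to 45.9 CPM in OPCs and 27.3 to 43.5 CPM in OLs, and the stages overlapped; with a transcript length offset the call was lost (adjusted p = 0.258). Factors known to restrain differentiation were among those that rose, with Id4 at 1.80 to 3.79 CPM in OPCs and 33.3 to 40.2 CPM in OLs, Hes5, a Notch target, up by 2.28, Hey2 by 2.55, Id2 by 1.73 and Sox9 by 0.90.

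Genes of DNA replication and mitosis fell together. All 24 DNA replication genes and all 22 tested mitosis genes were called lower (100% of each list, beside 25.1% of all genes). The medians were -2.45 and -3.44, and the counts were the same without library B. Mki67, the proliferation marker, went from 741 and 701 CPM (guide 1) and 903, 998 and 830.2 CPM (guide 2) to 54.8, 33.9 and 69.3 CPM and 53.6, 58.1 and 53.5 CPM. OL libraries lay below all OPC libraries, with library B lowest, and the change was -3.94 ± 0.16 (adjusted p = 2.86e-08). Summed levels of the mitosis list were 3053 to 4406 CPM in OPCs and 295 to 372 CPM in OLs. Mcm5, of the replicative helicase, fell by 3.39, Pcna, the polymerase clamp, by 1.75, Top2a, the topoisomerase of dividing cells, by 3.49 and Cdk1, the mitotic kinase, by 3.63.

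The 15 largest falls ran from -5.56 to -3.75, and Tnc, the tenascin matrix protein of progenitors, led them (959 to 1089 CPM in OPCs, 8.08 to 28.9 CPM in OLs, library B lowest). The list held the cyclin Ccnb1 (-5.36), the E2F factors E2f8 (-4.75) and E2f2 (-4.27), the nuclease Exo1 (-4.38), the replication licensing factor Cdc6 (-3.99), the thymidine kinase Tk1 (-3.80), the checkpoint kinase Bub1b (-3.77), the kinetochore scaffold Knl1 (-3.81), the condensin subunit Ncapg (-3.75), Depdc1a (-4.02) and the recombination factor Fignl1 (-3.96), beside Mki67. Tgfbr2, a TGF-beta receptor, and Sertm1 fell by 3.98 and 4.02. In control cells 14 of the 15 also fell (background 21.6%).

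Many cell cycle genes are known to carry the cell cycle genes homology region (CHR), TTTGAA, near their start, where the DREAM complex binds. Of 16 RefSeq promoters that matched 14 of the 15 genes with the largest falls, 8 held TTTGAA on either strand in the 250 bases before to 50 after the start (50.0%), against 17.9% of 32851 promoters. CCAAT, the NF-Y motif, was in 10 of the 16 (62.5%) and in 37.4% of all. AACAAT, a core bound by SOX factors, was in 2 of 16 promoters of the largest rises (12.5%; 11 of 15 genes matched) and in 10.7% of all. The motifs were searched on both strands, and none contains another. Among the promoters with TTTGAA were those of E2f2 and of Tgfbr2, a TGF-beta receptor, whose stretches are not printed. Stretches of 30 bases around the CHR (GRCm38.p6, RefSeq) are given for 6 others, genes of the cell cycle. They are on the strand of the gene, with TTTGAA or its reverse complement TTCAAA in capitals.
Mki67, chr7:135716460-135716489, minus strand: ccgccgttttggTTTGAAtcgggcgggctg
Bub1b, chr2:118598231-118598260, plus strand: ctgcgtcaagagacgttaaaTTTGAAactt
Knl1, chr2:119047138-119047167, plus strand: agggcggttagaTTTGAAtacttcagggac
Ncapg, chr5:45669883-45669912, plus strand: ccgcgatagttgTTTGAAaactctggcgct
Depdc1a, chr3:159495405-159495434, plus strand: cgctcggagataTTCAAAtcagcagcgcgg
E2f8, chr7:48881599-48881628, minus strand: gagcgggttaatTTCAAAtcgggggctgga
These are matches of letters, not measured sites.

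Of 16 genes of G1 control tested, 8 fell (50.0%, beside 25.1% of all genes) and 3 rose (18.8%, beside 24.2%), with a median of -0.65. Ccnd1, the D cyclin induced by growth factors, fell by 3.26 (328 to 471 CPM in OPCs, 33.9 to 48.1 CPM in OLs), Cdk6 by 2.04 and Cdk4 by 1.08. Cdkn1b, the inhibitor p27 that accumulates as progenitors stop dividing, did not pass at the RNA level (-0.054, adjusted p = 0.595), and Cdkn1a (p21) fell by 1.45. Cdkn2b and Rb1 rose by 1.53 and 0.90. Of 16 p53 response genes, 10 fell (62.5%, beside 25.1% of all genes) and 0 rose (0%, beside 24.2%), with a median of -0.62. Without library B 1 rose. Gtse1 and Psrc1, which also act in mitosis, fell most, by 3.34 and 2.73, and Bax, a cell death gene, by 0.60.

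Lipid synthesis genes tended upward. In the cholesterol list 14 of 24 rose (58.3%, beside 24.2% of all genes) and 1 fell (4.17%, beside 25.1%), with a median of 0.59. Summed levels were 3490.4 to 3903 CPM in OPCs and 5938 to 7650.1 CPM in OLs. Hmgcs1, an early enzyme of the pathway, rose by 1.40 (1081 to 1193 CPM in OPCs, 2660.2 to 3828 CPM in OLs), Lss, which closes the sterol rings, by 1.34, and Cyp51 by 1.03. In the fatty acid and sphingolipid list 11 of 19 rose (57.9%, beside 24.2% of all genes) and 4 fell (21.1%, near the 25.1% of all genes). The median was 0.54. Only 2 fell on leaving out library A of the guide 1 OLs, library B or C of the guide 2 OLs, or guide 2 OPC library A or B. The desaturases Fads2, Fads1 and Scd2 rose by 1.39, 1.00 and 1.21, and Elovl7, which extends long chains, by 3.21.

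Feedback genes of the ERK pathway, which growth factors induce, fell more often than they rose, with a median of -0.49. Of 16 tested, 8 fell (50%, beside 25.1% of all genes) and 2 rose (12.5%, beside 24.2%). The 2 rises became 0 without guide 1 OPC library A or B and 1 without any 1 library of guide 2. The phosphatase Dusp6 fell by 2.04 and the Sprouty inhibitors Spry4 and Spry1 by 1.93 and 1.49. In the BMP list 3 of 10 rose, Smad7 most (1.95), and 3 fell, shares near the background; 5 rose without library B. Of 19 matrix genes 9 rose (47.4%, beside 24.2% of all genes) and 5 fell (26.3%, near the 25.1% of all genes), with a median of 0.78: Fbln2, a fibulin, fell by 2.84 and the lectin Lgals1 by 3.17, and Sparcl1, a secreted glycoprotein, rose by 1.63. Cytoskeleton genes rose in 15 of 21 cases (71.4%, beside 24.2% of all genes) and fell in 2 (9.52%, beside 25.1%), with a median of 0.62. Among those that rose were Tubb4a, an oligodendrocyte tubulin (4.30), Mapt, the protein tau (2.91), and Tuba1a (1.06).

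Genes of the unfolded protein and integrated stress responses rose in 10 of 16 cases (62.5%, beside 24.2% of all genes). Falls were called in 0 (0%, beside 25.1%), or in 1 without library B, and the median was 0.65. Slc7a11, the cystine transporter, rose by 2.25, Chac1, which degrades glutathione, by 1.75, Slc3a2, an amino acid transporter subunit, by 1.08 and Atf4, the pathway's factor, by 0.48. Hspa5, the main chaperone of the endoplasmic reticulum, did not pass (0.056, adjusted p = 0.728). In the interferon list 3 of 11 rose and 2 fell (median 0.31), a share near the background.

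**Figure D3:**
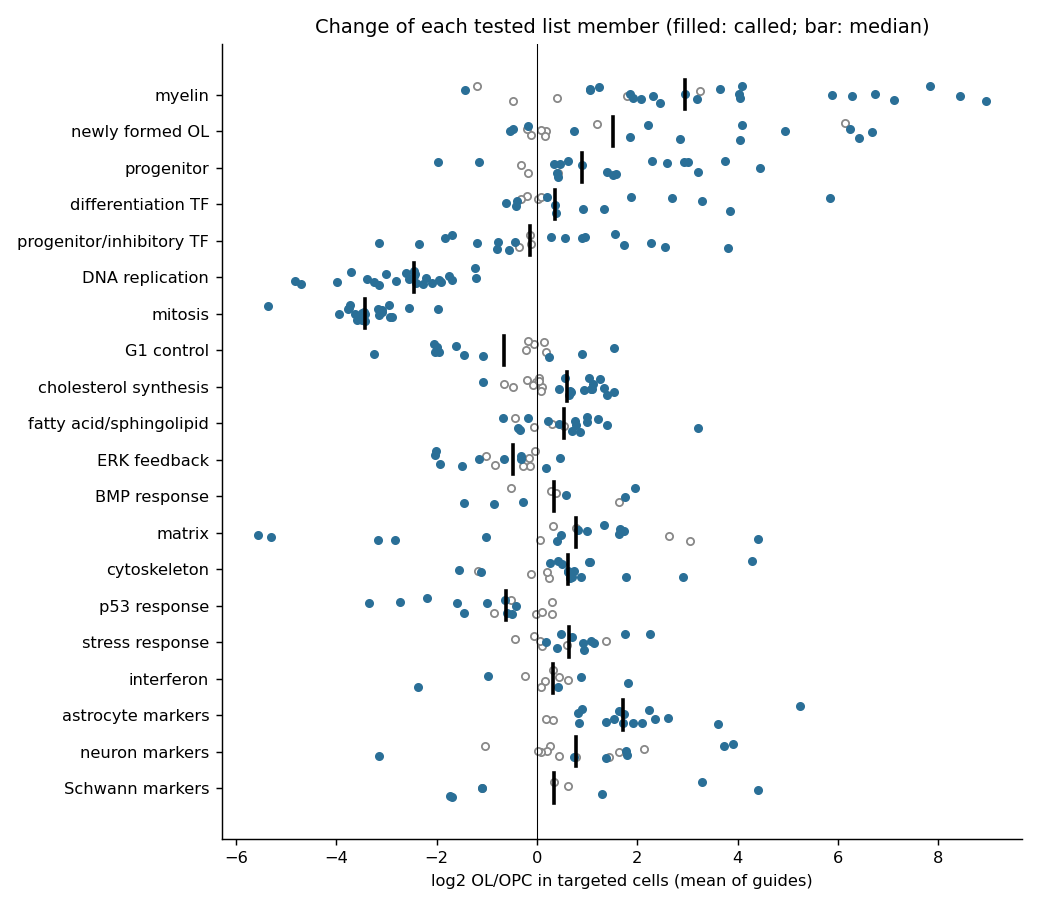
Log2 change (OL over OPC, mean of the guides) of each tested member of 20 gene lists in the targeted cells; filled points passed the test, open points did not, and the bar is the median. DNA replication and mitosis genes lie wholly on the left, and most tested myelin genes and astrocyte markers on the right.

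Astrocyte markers rose in 15 of 17 cases (88.2%, beside 24.2% of all genes) and fell in 0 (0%, beside 25.1%), with a median of 1.71. Their summed level was 3036 to 3275 CPM in OPCs and 11449.7 to 12779 CPM in OLs (2559.8 to 2746 and 9498 to 9732 CPM in controls). Slc1a2, a glutamate transporter, rose by 2.24, Gja1, a connexin, by 2.09 and Apoe as above, and Gfap, the defining filament of astrocytes, stood at 0.541 to 1.81 CPM in OPCs and 3.08 to 6.01 CPM in OLs. The water channel Aqp4 stood at 9.11, 0, 3.36, 1.36 and 0 CPM in the 5 OPC libraries and 5.52 to 47.0 CPM in OLs, and the stages overlapped. Oligodendrocyte lineage cells express several of these genes; the part of astrocytes in the results was not tested. Neuron markers rose in 6 of 17 cases (35.3%, beside 24.2% of all genes) and fell in 1 (5.88%, beside 25.1%), or 0 without library B. Their sums were 1204 to 1365 CPM in OPCs and 1189 to 2369 CPM in OLs (1313 to 1624 and 2503 to 2606 CPM in controls). Elavl3, an RNA-binding protein, rose by 3.73 and Tubb3, a tubulin, by 1.78, the nuclear marker Rbfox3 stood at 13 to 19.6 CPM in OPCs and 9.90 to 20.1 CPM in OLs, and the glutamate transporter Slc17a6 was at 0 in all 11 libraries. Microglia markers were near 0 (summed over 12 genes, at most 4.06 CPM in a targeted library), and of 3 tested 0 passed. Of the fibroblast or pericyte markers 2 of 6 fell (33.3%, near the 25.1% of all genes), Acta2 and the shared progenitor gene Cspg4. Pdgfrb was at 0 throughout. Schwann cell markers gave, at shares near the background, 3 rises (1 without guide 1 OPC library B or guide 2 OPC library B or C) and 3 falls of 9, Sox10 among the rises. Pou5f1 and Zfp42, which define pluripotent cells, were at 0 in all 11 libraries. Of 4 pluripotency genes tested 1 rose (25%, near the 24.2% of all genes) and 3 fell (75%, beside 25.1%).

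The sorted cells of the same series (3 OPC libraries and 3 libraries of O1-positive OLs, deposited as TPM, a level per transcript length, without a depth) gave a view of the same genes in untargeted cells. Of the 15 largest rises 13 were higher in all sorted OLs than in all sorted OPCs (background 26.2% of genes), and of the 15 largest falls 14 were lower (background 35.8%). Mobp stood at 0.0237, 0 and 0 TPM in sorted OPCs and 350.5, 248 and 279.8 TPM in sorted OLs. Scg2 and Slc25a34 were low in both (0.221, 0.254 and 0.376 TPM and 0, 0.181 and 0.712 TPM in sorted OLs).

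Control cells made much of the same change, and 243 of 14352 genes (1.69%) changed by a different amount in targeted cells: 132 by more upward or less downward (0.92%) and 111 the other way (0.773%). Control cells had 6178 calls of their own between OPCs and OLs (43.0%). Across 14004 genes tested in both, the changes had a Pearson r of 0.75 and a Spearman rho of 0.81. Of the genes called higher, 2506 were shared (73.7% of the targeted calls and 82.5% of the control calls), and of those called lower 2685 (76.5% and 86.8%). In 11 genes the calls went in opposite directions. Among the 243, both changes were called with the same sign in 161, and the targeted change was the larger in 96 of these and the smaller in 65. This count depended on single libraries: it was 638 (4.46%; 383 upward, 2.68%, and 255 downward, 1.78%) without library B of the guide 1 OLs, and all 243 remained called in the same direction. It was 113, 116 and 122 without control OL library A, B or C, 140, 133 and 153 without control OPC library A, B or C, and 114 and 132 without guide 1 OPC library A or B. With library totals in place of TMM the split was 86 to 161, and the count was 525 with DESeq2 and 104 with a transcript length offset.

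**Figure D4:**
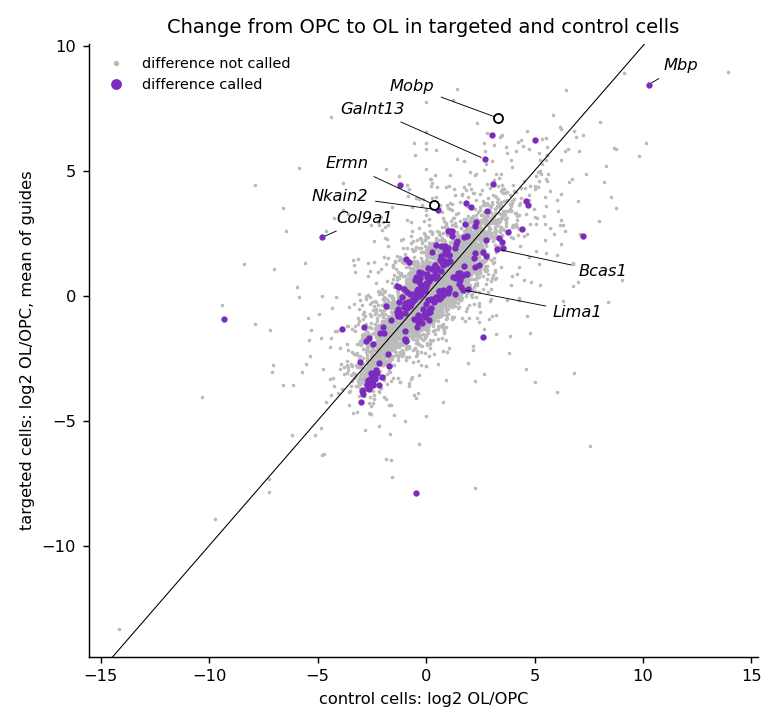
Change from OPC to OL in control cells (horizontal axis) and in targeted cells (vertical axis, mean of the guides), both as log2 of OL over OPC; purple points are genes whose change differed, and the line marks equal change. Most genes follow the line; Bcas1 and Lima1 lie below it and Nkain2, Galnt13 and Col9a1 above, and the open circles are Mobp and Ermn, whose difference did not pass.

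Among the 10 largest differences upward, Nkain2, which binds the sodium pump, stood at 2.29 and 2.10 CPM (guide 1) and 1.86, 1.36 and 2.11 CPM (guide 2) in OPCs and at 20.4, 19.1 and 23.6 and 24.7, 23.5 and 20.4 CPM in OLs, while control libraries were at 2.65, 2.50 and 2.12 CPM in OPCs and 3.13, 3.72 and 3.82 CPM in OLs. All targeted OL libraries lay above all other libraries, and the changes differed by 2.92 ± 0.22 (adjusted p = 1.38e-05). Galnt13 reached 22.6 to 36.6 CPM in targeted OLs against 5.91 to 6.15 CPM in control OLs, from 0.360 to 1.20 and 0.566 to 1.37 CPM in OPCs (difference 2.80 ± 0.31). Col9a1, a chain of type IX collagen, rose by 2.33 in targeted cells, from 2.35 to 5.70 CPM in OPCs, and stood at 7.28 to 34.9 CPM in OLs, library B being the highest. In control cells it fell by 4.80, with 6.06 to 7.10 CPM in OPCs and 0.0630 to 0.522 CPM in OLs, and the changes differed by 7.16 ± 0.87 (adjusted p = 6.19e-04). Chrm3, a muscarinic acetylcholine receptor, and Prr5l, a partner of the mTOR complex, fell less in targeted cells, to 2.40 to 4.85 and 8.16 to 11 CPM against 0.696 to 1.32 and 1.91 to 2.09 CPM. Efhd2, a calcium-binding protein, reached 69.1 to 86.0 CPM against 41.3 to 42.9 CPM. The other 4, with differences from 1.43 to 1.60, were Pfkp, a glycolytic kinase, Ptpru, a receptor phosphatase, Dmrta1, a transcription factor, and Sv2c, a vesicle protein.

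Downward, Bcas1 rose by 1.86 in targeted cells and by 3.28 in control cells: OPCs stood at 105 to 119 and 87.7 to 93.2 CPM, OLs at 342 to 455 and 862 to 891 CPM (difference -1.39 ± 0.081, adjusted p = 9.58e-07). Lima1, which crosslinks actin, stood at 63.7 to 80.6 CPM in targeted OPCs and 65.4 to 97.4 CPM in targeted OLs, which overlapped, and rose by 1.68 in control cells, from 72.2 to 80.6 CPM to a range of 238 to 255 CPM (difference -1.42 ± 0.11). Dixdc1, of the Wnt pathway, did not pass in targeted cells (0.28; 0.37 and adjusted p = 0.009 without library B) and rose by 1.93 in control cells, with 16.3 to 28.6 CPM in targeted OLs and 60.9 to 72.8 CPM in control OLs. Epha3, an ephrin receptor, Plcg2, a phospholipase, Rab7b, a GTPase of endosomes, and Matn2, a matrix protein, gained less in targeted cells by 1.62, 1.33, 1.75 and 1.22. Kif18b, a mitotic kinesin, and E2f2 fell further, by 1.36 and 1.22. In this comparison 10 of 10 genes named in each direction stayed called without library B.

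**Figure D5:**
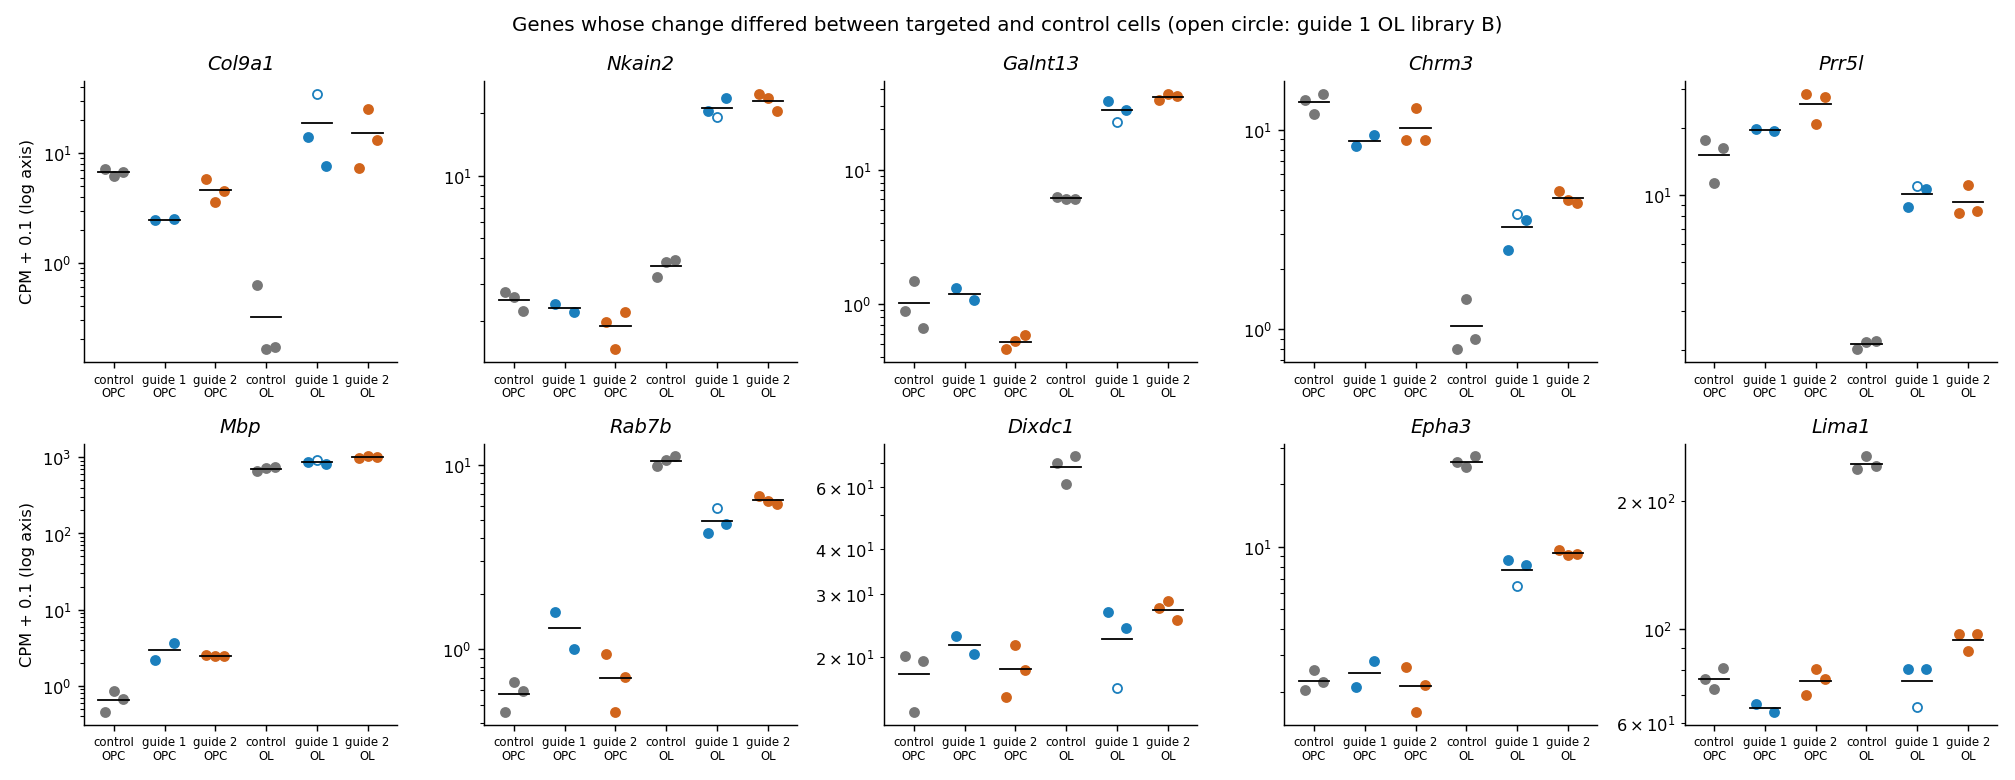
CPM plus 0.1 on a log axis for the 5 largest differences upward (top) and downward (bottom) between the targeted and the control change; each circle is 1 library, the bar is the group mean, and the open circle is library B of the guide 1 OLs. In the top row targeted OLs lie above control OLs; below, Rab7b, Dixdc1, Epha3 and Lima1 lie lower in targeted OLs, and Mbp higher in targeted OPCs.

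The 3 oligodendrocyte markers differed from each other in this comparison. Mbp rose by less in targeted cells, by 1.79 ± 0.24 (adjusted p = 0.00154), yet stood higher than in controls at both stages: control OPCs were at 0.358, 0.749 and 0.566 CPM and control OLs at 649.6, 725 and 739.8 CPM. Mobp was at 0.215, 0 and 0.212 CPM in control OPCs and 0.986, 1.51 and 1.80 CPM in control OLs, and its difference of 3.84 ± 1.02 did not pass (adjusted p = 0.0898; 0.0612 without library B). Ermn was at 0.143, 0 and 0.425 CPM and 0.232, 0.0630 and 0.432 CPM in controls, with a difference of 3.32 ± 0.95 (adjusted p = 0.122). The differences passed without control OPC library B (adjusted p = 0.0408 and 0.0355), that of Mobp also without guide 2 OPC library C (0.0331), and both in DESeq2 (6.5e-06 and 0.00135). In both genes each targeted OL library lay above each control OL library, while the control OPC counts that the difference rests on were close to 0. The difference of Mbp also rests on low levels in control OPCs, 0.358 to 0.749 CPM. Gpr17 rose from a lower level than in control cells (39.6 to 59.8 CPM in control OPCs) and stayed below them in OLs (1598 to 1683 CPM), with a difference of 1.28 ± 0.22 (adjusted p = 0.00783).

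Over all genes, 0.92% differed from the control change upward and 0.773% downward. By list, 8 of 23 mitosis genes fell further in targeted than in control cells and 0 less (11 without library B; median difference -0.72), among them Mki67 (-1.02), Bub1b (-0.85) and Top2a (-0.79). Control OLs kept summed mitosis CPM of 640.1 to 655, against 295 to 372 in targeted OLs. In the replication list 1 of 24 differed, Mcm5 (-0.68). Cholesterol genes gave 3 of 24 upward (7 without library B; median 0.44), Cyp51, Dhcr7 and Stard4, and 8 of them rose and 3 fell in control cells. Stress response genes gave 4 of 17 upward (8 without library B; median 0.61), Trib3, Slc3a2, Sdf2l1 and Chac1, the last at 17.1 to 21.3 CPM in targeted OLs and 7.71 to 9.77 CPM in control OLs, with 4.98 to 6.02 and 4.03 to 5.09 CPM in the OPCs. ERK feedback genes gave 3 of 16 upward (5 without library B), Spry4, Spry1 and Phlda1. In the myelin list 1 differed upward, Gpr37, and 1 downward, Mbp. Of 22 newly formed oligodendrocyte genes 4 differed downward and 1 upward (4 and 2 without library B), with a median difference of -0.079. Their summed CPM were 2715 to 3650 in targeted OLs and 5797 to 5864 in control OLs. In OPCs the sums were 1667 to 1714 in targeted and 1651 to 1692 in control cells. Of the 36 differences named here, 13 lost the call on leaving out at least 1 library: Chac1, Cyp51, Dhcr7, Dmrta1, Gpr37, Mki67, Phlda1, Ptpru, Rab7b, Sdf2l1, Slc3a2, Spry4 and Trib3. Over every alternative run, 25 of the 36 lost it at least once. Leaving out library B of the guide 1 OLs ended 0 of these calls, and leaving out any other single library ended 2 to 13.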

How the data were processed

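Per the submitters' processing notes, the authors quantified reads against mm10 with Salmon 0.14.1. They deposited estimated counts and TPM per gene symbol, in 1 table per medium, and TPM for the sorted cells. TPM served here for transcript lengths and the sorted cells, and those of the 17 targeted and control libraries sum to 77.6% to 79.2% of the full scale. Other deposited tables repeat these or hold comparisons within a stage and were not used here.

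Estimated counts were rounded, filtered with filterByExpr (minimum count 10, minimum total 15) and scaled by TMM, with CPM on 1 scale over 17 libraries. edgeR 4.0.16 (R 4.3.3) tested 1 coefficient per guide and stage, two-sided, adjusted by Benjamini-Hochberg over every tested gene, at a threshold of 0.05. The stage contrast used the 11 targeted libraries and the difference from control cells all 17; DESeq2 1.42.0 was an alternative. Members, lists and tests were chosen with earlier results of these data known. Genes were named by rank past the threshold with at least 10 CPM in the higher group (15 changes each way without overlap of libraries, 10 differences each way), leaving out predicted, mitochondrial and ribosomal protein genes, besides the markers and list members. Some genes, 1 of the 15 largest rises among them, are not reported here. Scripts were tested on simulated data. Exons overlap between Tk1 and Afmid, Ncapg and Lcorl, and Pfkp and Pitrm1, and antisense genes overlap Bcas1, Tnr, Tnc and E2f8; reads there cannot be told apart.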

Additional observations from a re-analysis of the deposited data

Results flagged for a closer look

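The change from OPCs to OLs differed between targeted and control cells by the test of the difference for these genes. Values are the log2 change in targeted minus that in control cells. Higher were Col9a1 (7.16), Nkain2 (2.92), Galnt13 (2.80), Chrm3 (2.54), Prr5l (1.66), Pfkp (1.60), Ptpru (1.51), Dmrta1 (1.51), Efhd2 (1.5), Sv2c (1.43), Chac1 (0.84), Cyp51 (0.65), Dhcr7 (0.45), Gpr17 (1.28), Gpr37 (0.59), Phlda1 (0.47), Sdf2l1 (0.81), Slc3a2 (0.62), Spry1 (0.68), Spry4 (0.54), Stard4 (0.45) and Trib3 (1.22). Lower were Mbp (-1.79), Rab7b (-1.75), Dixdc1 (-1.63), Epha3 (-1.62), Lima1 (-1.42), Bcas1 (-1.39), Kif18b (-1.36), Plcg2 (-1.33), Matn2 (-1.22), E2f2 (-1.22), Bub1b (-0.85), Mcm5 (-0.68), Mki67 (-1.02) and Top2a (-0.79).

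Among the 6 targeted OL libraries, 1 library lay farther from the rest of the values than Dixon's 95% limit in the summed CPM of 7 lists, and in 6 of them it was library B of the guide 1 OLs. It was lowest for progenitor (8533 CPM), neuron (1189 CPM) and fibroblast or pericyte genes (71.3 CPM), and highest for DNA replication (648 CPM), cytoskeleton (18923 CPM) and stress response genes (3817 CPM). For microglia genes library C of the guide 1 OLs was highest, at 4.06 CPM. For independent values drawn from a single normal distribution, chance alone flags about 1 in 20 groups. These 6 libraries pool both guides and some lists share genes, so that rate may not hold here.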

How the results depend on the processing

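Of 2274 alternative values for the stage change of 127 named genes, 2269 kept their direction and their side of the threshold; Sox5 lost its call with a transcript length offset and Dixdc1 gained one without library B of the guide 1 OLs. Leaving out each library in turn, values near 0 that had not passed changed sign: Cdkn1b ran from -0.11 to 0.0077, Hspa5 from -0.074 to 0.14 and Tcf7l2 from -0.074 to 0.17, the negative end of the last pair being without library B of the guide 1 OLs. Of 933 values for 39 differences from control cells, 735 kept both, 190 no longer passed and 6 newly passed. With control OPC library B as the single control OPC library, added after the data were seen because libraries A and C lean with length in opposite directions, the differences of Mobp and Ermn turned to -0.38 and -1.30, and 46 differences were called. Control OPC library B held 0 CPM of Mobp and of Ermn, so in that run the control change of both genes was set by that 0. The turn in sign therefore cannot show whether these differences reverse, and the part of length in them was not tested. The count of differences was 525 with DESeq2 and 104 with the length offset, and that between guides 38 with DESeq2. The cause of these shifts in count was not tested. On leaving out each library in turn, counts ran from 5727 to 8378 for the stage change, 2751 to 6151 for guide 1, 4639 to 7629 for guide 2, 0 to 2 between guides and 113 to 638 for the difference from control cells. List counts moved by over 1.5 times in 55 of 826 values, each from a reported count of 6 or fewer. Genes with a few counts in OPCs, such as Mbp, Mobp and Ermn in control cells, are limited by depth. No paired analysis was possible because the columns carry letters in place of the replicate numbers of the labels.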
